A study of Sus scrofa domesticus with 36 samples.

Results

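The respiratory chain subunits measured here are the products of 44 pig genes out of 25322 counted in backfat and back muscle. They were chosen by symbol alone: those starting NDUFA, NDUFB, NDUFC, NDUFS, NDUFV, SDH, UQCR or ATP5, and those starting COX followed by 4, 5, 6, 7 or 8, without the NDUFAF and SDHAF assembly factors. The symbols cover 20 genes of complex I, 4 of complex II, 6 of complex III, 8 of complex IV and 6 of complex V. RNA sequencing was done on subcutaneous backfat, taken between rib 8 and the last rib, and on longissimus dorsi, a muscle along the spine. Pigs are called here by their labels, such as Sample_77. Each of 18 commercial crossbred pigs (Danbred 600 X Newsham NC32, per the growth protocol) gave 1 library of each tissue 3 weeks after weaning. Of 1054 weaned pigs, 9 came from the bottom of the growth range, up to percentile 10, and 9 from percentiles 60 to 70. Which pig belongs to which class is not in the labels at hand, so the comparison is between the tissues. In the breed labels the Newsham number differs between all 36 libraries, from NC32 to NC71, and the labelled age of 16 to 17 days and stage of weaning do not match sampling 3 weeks after it.

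The respiratory chain passes electrons from NADH and succinate to oxygen and uses the released energy to pump protons across the inner mitochondrial membrane. Complex I oxidises NADH and complex II oxidises succinate, both handing electrons to ubiquinone. Complex III moves them on to cytochrome c and complex IV from there to oxygen. Complex V, the ATP synthase, lets the protons back in and makes ATP. Every complex except complex II is built partly from subunits encoded in the mitochondrial genome, and skeletal muscle carries far more mitochondria than white fat cells. Several complex IV subunits also come as paired forms, with a heart and muscle form beside one found in most tissues.

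A table of current pig symbols holds 72 genes that fit the rule, and 28 of these had no row in the counts under their current identifier. Those 28 were not analysed here. They include the muscle forms COX6A2 and COX7A1, with COX6A1, COX4I2, COX6B2, COX6C, COX7B and COX7C in complex IV and UQCRB in complex III. They also include 12 genes of complex I, among them the core subunits NDUFS3, NDUFS8 and NDUFV2, and 7 of complex V, among them ATP5F1C, ATP5F1D and ATP5MC2. Some subunits have no entry even among the current symbols, such as NDUFS7 of the complex I core, COX6B1 and COX8B. The medians of all complexes but complex II therefore rest on part of their subunits. Of the 44 genes with a row, 43 had enough counts to be tested. The exception was NDUFA4L2, a relative of NDUFA4, with 0 to 0.442 CPM (gene counts scaled to a common library size) in adipose libraries and 0 to 0.576 CPM in muscle libraries.

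Libraries held 2990913 to 5373406 gene counts in adipose and 4716541 to 6216459 in muscle. Levels are in CPM, scaled by trimmed-mean factors. Differences are given on a log2 scale as adipose minus muscle, followed by the standard error (SE), with n = 18 pigs throughout. The tissue labels matched their markers. All 6 tested adipocyte markers, such as PLIN1 and PCK1, were higher in adipose, with a summed level of 1420 to 2842 CPM in adipose against 107 to 470.3 CPM in muscle. The adipocyte markers ADIPOQ, LEP, FABP4 and LPL had no row under their symbols. All 11 tested skeletal muscle fibre markers were lower in adipose, with a summed level of 140 to 28610 CPM in adipose (median 1462) against 89380 to 474603 CPM in muscle (median 293726). No fibre marker was at 0 in every adipose library, and the part of muscle RNA in the adipose levels below was not tested beyond the values given. Of markers of other cells, 5 of 5 tested for leukocytes, 5 of 5 for fibroblasts and 3 of 3 for endothelium were higher in adipose. Of 4 tested for brown or beige fat cells 1 was higher and 2 were lower in adipose, and of 2 tested for red blood cells 1 was higher. Only 4 of 8 listed brown or beige markers had a row, and UCP1, CIDEA, DIO2 and COX8B did not. Rows were also found for 11 of 18 fibre, 5 of 8 leukocyte, 5 of 6 fibroblast, 3 of 6 endothelium and 3 of 5 red blood cell markers. The adipose libraries of Sample_731, Sample_391, Sample_911 and Sample_176 held the highest fibre marker sums, between 5315 and 28610 CPM. The muscle libraries of Sample_572 and Sample_735 held the lowest, 89380 and 102130 CPM, and the adipose library of Sample_656 had 53.8% of its counts outside annotated genes, against an adipose median of 33.7%.

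Transcripts for the respiratory chain were lower in adipose in every complex. Of the 43 tested subunits, 41 were lower in adipose and 2 were higher, at a Benjamini-Hochberg adjusted p under 0.05 over all genes by edgeR's quasi-likelihood test. The background was 39.2% of 12542 tested genes lower in adipose and 46.7% higher. The median log2 difference of the tested subunits was -2.47, a level in adipose of 0.181 times that in muscle, beside a median of 0.14 over all tested genes. In 36 of the 43 the adipose level was lower by at least 4-fold, which was so for 9.22% of all tested genes. In all 18 pigs 39 subunits were lower in adipose, against 25.2% of all tested genes. All 18 adipose libraries lay below all 18 muscle libraries for 39 subunits, against 17.6% of all tested genes. Scaled by library totals only, 38 subunits were lower in adipose, 3 were higher and 2 did not pass, while 87.0% of the calls over all genes were higher in adipose, against 54.3% with trimmed-mean factors. In bulk tissue, fewer cells of a type and less RNA per cell cannot be told apart.

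**Figure D1:**
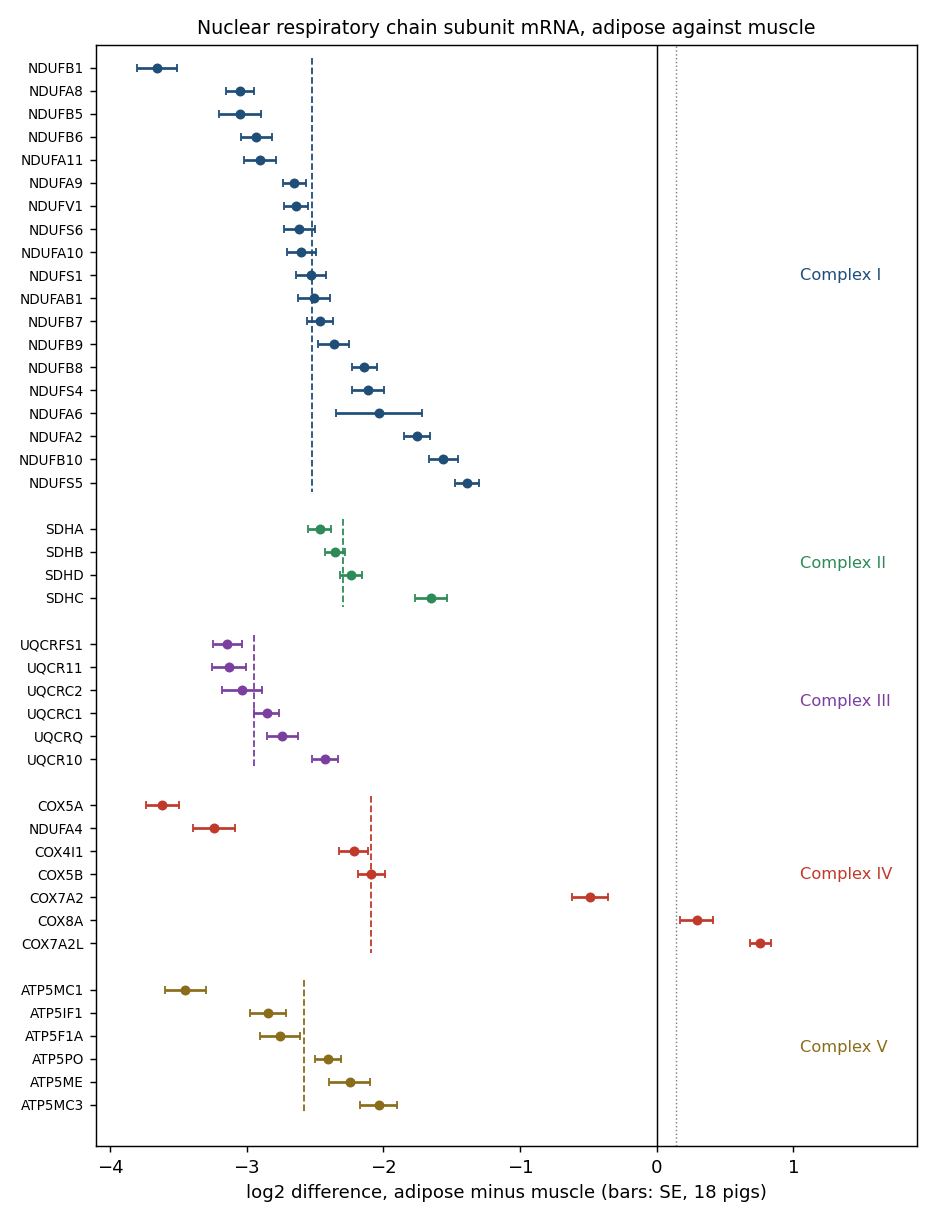
Log2 difference in level, adipose minus muscle, of 42 tested subunits (points) with the SE (bars), ordered within each complex. Of the 43 tested, 1 complex I subunit whose result is not reported here is not drawn. Dashed lines mark the median of all tested subunits of each complex, the dotted grey line the median of all tested genes (0.14). The points lie between -3.66 (NDUFB1) and 0.76 (COX7A2L), and COX7A2, COX8A and COX7A2L stand to the right of the other 39.

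Complex I, the entry point for NADH, had 20 tested subunits, and all 20 were lower in adipose, with a median log2 difference of -2.52 and a range from -3.66 to -1.39. Its core subunits carry the flavin and the iron-sulfur clusters, and the accessory subunits surround and stabilise them. The 3 core subunits with a row had a median of -2.53 and the 17 accessory subunits one of -2.51. NDUFV1, the subunit that binds NADH, ran from 36.6 to 81.3 CPM in adipose (median 46.5) against 209 to 385 CPM in muscle (median 308). Its log2 difference was -2.64 (SE 0.089). NDUFS1, the largest iron-sulfur subunit, ran from 58.1 to 103.8 CPM in adipose (median 68.9) against 202 to 580 CPM in muscle (median 410). NDUFS1 differed by -2.53 (SE 0.107), and the tissues did not overlap for either gene.

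Both ends of the range of complex I were accessory subunits. NDUFB1, a small membrane-arm subunit, had the most negative difference of all tested subunits, -3.66 (SE 0.145). It ran from 3.45 to 12.3 CPM in adipose (median 5.72) against 55.5 to 133 CPM in muscle (median 78.1). At the other end NDUFS5 stood at -1.39 (SE 0.088), with 35.1 to 63.4 CPM in adipose (median 44.3) against 80.4 to 156 CPM in muscle (median 118). Both sets of libraries stayed apart. NDUFB10, a membrane-arm subunit with the most counts in complex I, had 204 to 341 CPM in adipose (median 272) against 470 to 1657 CPM in muscle (median 783), a difference of -1.56 (SE 0.106). In a Sscrofa11.1 gene table NDUFB10 overlaps RPS2 and RPL3L, so its reads could be shared with theirs. Such an overlap with another annotated gene was present for 7 of the 34 subunits found in that table, which were NDUFB10, NDUFB1, NDUFA8, NDUFA2, NDUFS4, SDHA and ATP5F1A.

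The remaining accessory subunits lay between these ends. NDUFA8 and NDUFB5 were both at -3.05, NDUFB6 at -2.93 and NDUFA11 at -2.90. NDUFA9, NDUFS6, NDUFA10, NDUFB7 and NDUFB9 stood between -2.65 and -2.36, as did NDUFAB1, the mitochondrial acyl carrier protein, at -2.51. NDUFB8, NDUFS4 and NDUFA6 stood at -2.14, -2.11 and -2.03, and NDUFA2 at -1.75 (SE 0.095). By name family, the medians were -2.60 for the 7 NDUFA, -2.47 for the 7 NDUFB and -2.11 for the 5 NDUFS subunits tested.

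NDUFA6, an accessory subunit next to the acyl carrier protein, was thinly counted and split the pigs into separate groups in both tissues. Sample_77, Sample_114, Sample_572 and Sample_656 had 0.440 to 0.860 CPM in adipose and 0.683 to 1.45 CPM in muscle. The other 14 pigs had 1.51 to 2.95 CPM in adipose and 5.11 to 27.6 CPM in muscle. The same 4 pigs were thus the lowest in each tissue, with no overlap with the rest. These levels rest on 3 to 6 counts per adipose library and 2 to 6 per muscle library in the 4 pigs, against 11 to 24 and 15 to 72 in the others. Its spread over pigs in muscle, an SD of 1.25 in log2 CPM, was the widest of the tested subunits in that tissue. NDUFA6 and these pigs were singled out after their values were seen, so no test was made.

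Complex II, which is also an enzyme of the TCA cycle, was the only complex with a row for every subunit. All 4 were lower in adipose, with a median of -2.30. SDHA, the flavoprotein that oxidises succinate, ran from 112 to 199 CPM in adipose (median 139.5) against 559 to 993 CPM in muscle (median 784). SDHB, the iron-sulfur subunit, ran from 60.8 to 90.1 CPM in adipose (median 70.9) against 261 to 439 CPM in muscle (median 391.1). Their log2 differences were close, -2.47 (SE 0.086) and -2.36 (SE 0.074), and the SE of SDHB was the smallest among the tested subunits. The membrane anchors were SDHD at -2.24 (SE 0.078) and SDHC at -1.65 (SE 0.117). SDHD had 73.0 to 114.2 CPM in adipose (median 87.5) against 265 to 550 CPM in muscle (median 434). SDHC had 44.8 to 96.1 CPM in adipose (median 66.5) against 110.0 to 345 CPM in muscle (median 215), and here too no adipose library reached the lowest muscle library.

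Complex III had the most negative median, -2.95 over 6 tested subunits, all lower in adipose, and the narrowest range, from -3.14 to -2.43. UQCRFS1, the Rieske iron-sulfur protein, ran from 63.7 to 147 CPM in adipose (median 80.2) against 437 to 948 CPM in muscle (median 730). The core proteins UQCRC1 and UQCRC2, which face the matrix, differed by -2.85 (SE 0.092) and -3.04 (SE 0.146). UQCRC1 had 60.8 to 135 CPM in adipose (median 90.5) against 493 to 799.5 CPM in muscle (median 656.03). UQCRC2 had 27.2 to 73.5 CPM in adipose (median 44.9) against 244 to 586 CPM in muscle (median 304). The small subunits UQCR11, UQCRQ and UQCR10 stood at -3.13, -2.74 and -2.43. Compared within a pig, where the scaling of the libraries largely cancels, the median difference of complex III lay below that of complexes I, II, IV and V in 18 of 18 pigs each. The gap to complex V was as small as -0.02 in 1 pig and that to complex I as small as -0.06.

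Complex IV was the least uniform, with log2 differences from -3.62 to 0.76 and a median of -2.09 over 7 tested subunits. NDUFA4 is counted here, since it is now known as a subunit of complex IV despite its symbol; without it the median was -1.29. COX5A, a matrix-side subunit, had the most negative difference, -3.62 (SE 0.120), with 35.3 to 101 CPM in adipose (median 48.9) against 401 to 876 CPM in muscle (median 636). NDUFA4 differed by -3.24 (SE 0.154), with 41.0 to 169 CPM in adipose (median 75.2) against 364 to 1319 CPM in muscle (median 721). COX4I1, the subunit through which ATP regulates the complex, ran from 135 to 269 CPM in adipose (median 174) against 516 to 1566 CPM in muscle (median 798), a difference of -2.22 (SE 0.105). COX5B, a zinc-binding subunit, was at -2.09 (SE 0.097), with 48.5 to 98.6 CPM in adipose (median 69.5) against 201 to 459 CPM in muscle (median 303). In all 4 the tissues stayed apart.

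The other 3 tested genes of complex IV departed from this. COX7A2L, a factor that links complexes III and IV into supercomplexes, was higher in adipose, at 62.9 to 100.6 CPM (median 76.9) against 29.6 to 62.9 CPM in muscle (median 44.02). Its log2 difference was 0.76 (SE 0.078, adjusted p = 1.94e-11 by edgeR's quasi-likelihood test), and it was higher in 18 of 18 pigs. The lowest adipose library and the highest muscle library of COX7A2L both rounded to 62.9 CPM, with no overlap. Adipose libraries lay wholly above muscle libraries for 14.8% of all tested genes. COX8A, the form of subunit VIII found in most tissues, had 42.7 to 103 CPM in adipose (median 61.1) against 28.7 to 75.9 CPM in muscle (median 45.9). The groups overlapped, and COX8A was higher in adipose in 15 of 18 pigs, by 0.29 (SE 0.122, edgeR adjusted p = 0.0258). This call was lost without Sample_656, Sample_572 and Sample_735 (0.20, edgeR adjusted p = 0.140), without the 4 pigs highest in fibre markers in adipose (0.25, edgeR adjusted p = 0.0937), and with DESeq2 (0.26, adjusted p = 0.0505). The paired form COX8B had no row matched by symbol, so the values of COX8A do not cover subunit VIII as a whole.

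COX7A2, the form of subunit VIIa found in most tissues, was lower in adipose by less than any other called subunit on that side. It had 25.6 to 54.5 CPM in adipose (median 34.3) against 30.1 to 127 CPM in muscle (median 46.6), a difference of -0.49 (SE 0.131, edgeR adjusted p = 0.000809). Levels overlapped widely, with 14 of 18 adipose libraries above the lowest muscle library, and COX7A2 was lower in adipose in 16 of 18 pigs. When libraries were scaled by their totals only, COX7A2 turned to 0.91 in favour of adipose. That scaling moved the median of all genes by 1.37 toward adipose, and COX7A2 lay below that median under either scaling. The muscle form COX7A1 was not analysed here, so no ratio of the 2 forms was made.

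**Figure D2:**
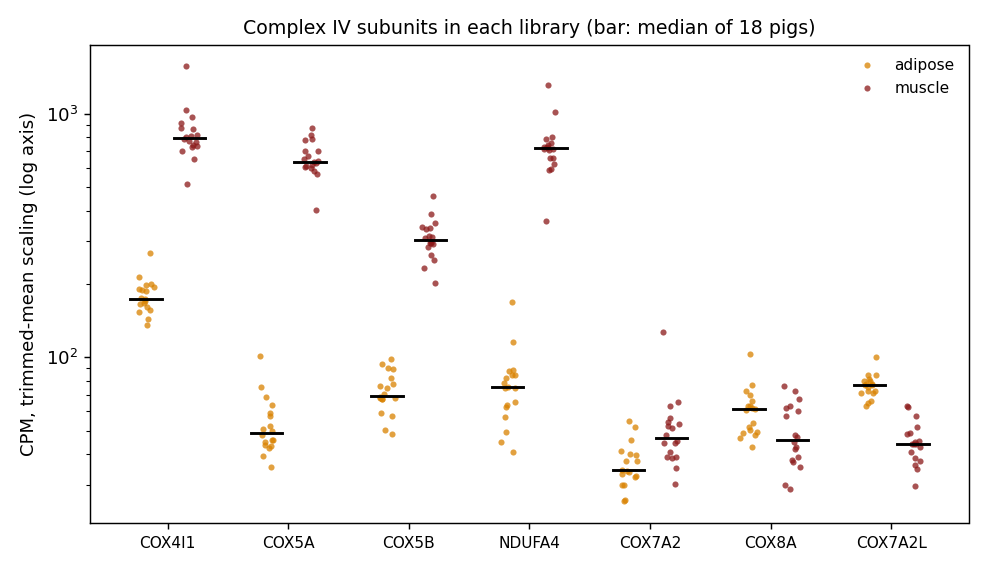
Level of each tested complex IV gene in CPM (log axis) in every library, adipose in orange left of muscle in red, with the median of 18 pigs as a bar. For COX4I1, COX5A, COX5B and NDUFA4 the adipose points lie wholly below the muscle points, for COX7A2 and COX8A they overlap, and for COX7A2L they lie above.

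Ratios within a library do not depend on its scaling. They were taken to COX4I1 after the levels had been seen, so they are given without a test. COX5B kept about the same ratio to COX4I1 in both tissues, 0.279 to 0.522 in adipose (median 0.388) and 0.291 to 0.470 in muscle (median 0.370). COX5A stood at 0.204 to 0.512 in adipose (median 0.278) and 0.560 to 1.048 in muscle (median 0.801), and NDUFA4 at 0.256 to 0.854 (median 0.385) and 0.682 to 1.11 (median 0.871), in adipose and muscle. The other 3 ran the opposite way. COX4I1 itself was at -2.22, so any gene with a less negative difference takes a higher ratio in adipose. The median of all tested genes, at 0.14, lies on that side too. COX8A was at 0.218 to 0.441 of COX4I1 in adipose (median 0.350) and 0.0359 to 0.0928 in muscle (median 0.0561). COX7A2L was at 0.289 to 0.562 in adipose (median 0.435) and 0.0404 to 0.0814 in muscle (median 0.0550). COX7A2 was at 0.151 to 0.282 in adipose (median 0.205) and 0.0430 to 0.0816 in muscle (median 0.0602). For COX5A, COX8A, COX7A2L and COX7A2 the tissues did not overlap in this ratio. The share of all genes with such a separation was not taken, so it is not read as particular to these subunits.

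**Figure D3:**
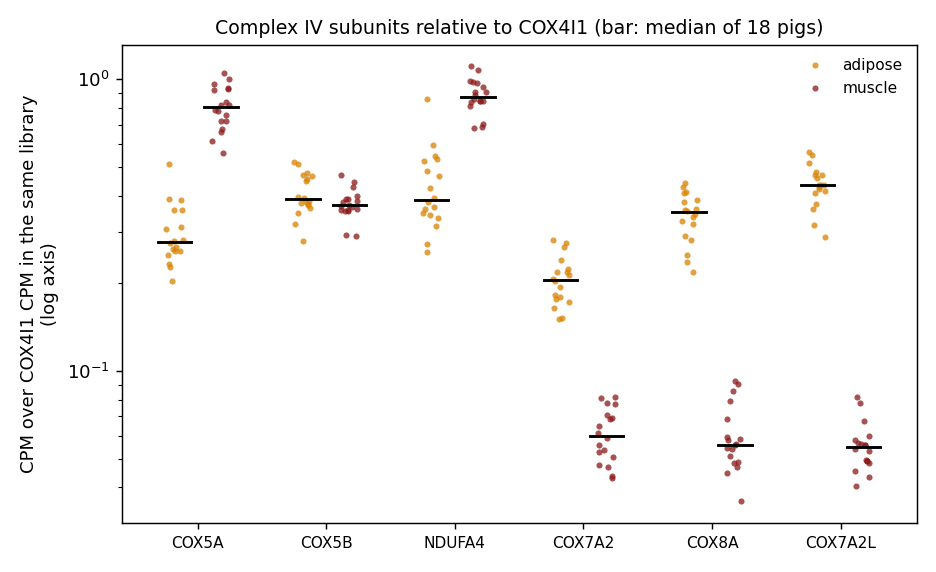
Level of complex IV genes divided by that of COX4I1 in the same library (log axis), adipose in orange left of muscle in red, with the median of 18 pigs as a bar. The ratio of COX5B has a median of 0.388 in adipose and 0.370 in muscle, COX5A and NDUFA4 lie lower in adipose, and COX7A2, COX8A and COX7A2L lie higher.

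Complex V, the ATP synthase, had 6 tested genes, all lower in adipose, with a median of -2.58. ATP5F1A, the alpha subunit of the catalytic head, ran from 197 to 404 CPM in adipose (median 258) against 665 to 2649 CPM in muscle (median 1733), a difference of -2.76 (SE 0.145). ATP5PO, the stalk subunit that confers oligomycin sensitivity, ran from 71.0 to 151 CPM in adipose (median 98.6) against 358 to 910.6 CPM in muscle (median 501), a difference of -2.41 (SE 0.098). ATP5ME, a subunit of the membrane part, was at -2.25 (SE 0.148). ATP5IF1 is the inhibitor that stops the enzyme from running backward. It was at 40.2 to 87.7 CPM in adipose (median 56.3) against 296 to 906 CPM in muscle (median 367), a difference of -2.85 (SE 0.131).

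ATP5MC1 and ATP5MC3 encode the same mature subunit c, which forms the rotor ring, behind different import peptides. ATP5MC1 had 22.6 to 61.0 CPM in adipose (median 38.8) against 197 to 869 CPM in muscle (median 437.5), a difference of -3.45 (SE 0.151). ATP5MC3 had 68.9 to 147 CPM in adipose (median 92.1) against 159 to 577 CPM in muscle (median 388), a difference of -2.03 (SE 0.134). The 2 genes therefore differed between tissues by unequal amounts. The log2 ratio of ATP5MC1 to ATP5MC3 averaged -1.26 ± 0.22 in adipose and 0.18 ± 0.28 in muscle (SD, n = 18 pigs). It ran from -1.67 to -0.77 in adipose and from -0.21 to 0.61 in muscle, and it was lower in adipose in 18 of 18 pigs. The mean within-pig difference was -1.45 ± 0.38 (SD; two-sided permutation test with 100000 sign changes, p = 1e-05, the smallest they can give). Of 9 paralog pairs considered, this was the only 1 with both genes matched to a row and counted above 1 CPM. Among the other pairs only NDUFA4L2 with NDUFA4 failed on level, and the rest had a gene with no row matched by symbol. Reads of near-identical copies could have been split between ATP5MC1 and ATP5MC3.

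The 13 subunits encoded in the mitochondrial genome, which enter complexes I, III, IV and V, all had rows. All 13 were lower in adipose, and their estimated differences lay close together, from -2.42 (CYTB) to -1.83 (COX3) with a median of -2.19. Their spread over adipose libraries was unequal, with an SD of log2 CPM from 0.376 (COX1) to 1.58 (ND2). ND2 ran from 93.0 to 2783 CPM in adipose, and its difference had an SE of 0.337. COX1, the catalytic subunit of complex IV, had 7673 to 18795 CPM in adipose (median 11933) against 25887 to 102042 CPM in muscle (median 52974), a difference of -2.04 (SE 0.174). ATP6, through which protons pass in complex V, had 419 to 7498 CPM in adipose (median 4386) against 8475 to 42380 CPM in muscle (median 17647), a difference of -2.19 (SE 0.276).

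Together the 13 took 2.64% to 8.15% of gene counts in adipose (median 5.65%) and 5.68% to 14.9% in muscle (median 9.21%). The 44 nuclear genes took 0.359% to 0.585% in adipose (median 0.440%) and 0.685% to 1.22% in muscle (median 0.868%). The shares of the nuclear genes did not overlap between tissues, while those of the mitochondrial genes did. The ratio of mitochondrial to nuclear counts, in which library scaling cancels, was 5.40 to 17.9 in adipose (median 13.1) and 4.997 to 16.2 in muscle (median 9.75), and its ranges overlapped.

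**Figure D4:**
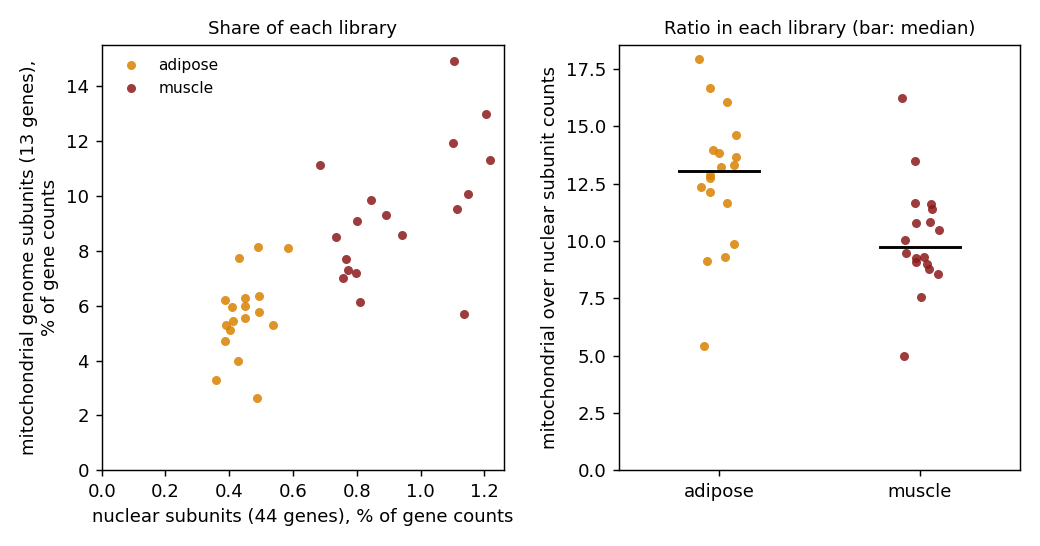
Left, share of gene counts taken in each library by the 44 nuclear subunits (x axis, %) and by the 13 subunits of the mitochondrial genome (y axis, %), adipose in orange and muscle in red. Right, the ratio of mitochondrial to nuclear counts in each library, with medians (bars) of 13.1 in adipose and 9.75 in muscle. Nuclear shares separate the tissues on the x axis, whereas the ratios overlap.

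Other genes that serve the chain were mostly lower in adipose as well. All 6 tested electron carriers and related genes were lower, among them CYCS (cytochrome c) at -3.46 (SE 0.141) and the phosphate carrier SLC25A3 at -2.48 (SE 0.094). All 16 tested genes of the TCA cycle and pyruvate dehydrogenase were lower, with a median of -2.53, including IDH2, a mitochondrial isocitrate dehydrogenase, at -3.48 (SE 0.110). All 13 tested genes of the outer membrane and protein import were lower, with a median of -1.69, including the channel VDAC1 at -3.23 (SE 0.101) and the import receptor TOMM20 at -1.62 (SE 0.080). The adenine nucleotide carriers, which exchange ADP for ATP, went in opposite directions. SLC25A4 had 18.7 to 283 CPM in adipose (median 45.1) against 2022 to 4334 CPM in muscle (median 2518), a difference of -5.32 (SE 0.277). Over the 18 adipose libraries the level of SLC25A4 moved with the summed fibre markers, at a Spearman rho of 0.930 (adjusted p = 0.00162). Its Pearson r was 0.893 (adjusted p = 0.00122), or 0.870 without the 2 libraries farthest from the median, and both permutation p were 1e-05, the smallest possible. SLC25A5 had 37.4 to 88.1 CPM in adipose (median 56.98) against 13.7 to 30.8 CPM in muscle (median 18.5), a difference of 1.5 (SE 0.113).

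Assembly factors, which build the complexes without staying in them, had a median nearer to 0 than the subunits. Only 25 of the 53 factors listed had a row under their symbols. Of 24 tested, 21 were lower in adipose, 2 were higher and 1 did not pass, and their median was -1.04. Over all tested genes 39.2% were lower and 46.7% higher. UQCC2, a complex III factor, was at -3.38 (SE 0.134), and ECSIT, a complex I factor, at -3.26 (SE 0.093). Both factors higher in adipose serve complex IV: SCO1, a copper chaperone, at 0.43 (SE 0.061), and COX18, which inserts a subunit into the membrane, at 0.42 (SE 0.099). Other tested factors of complex IV were lower in adipose, and were named after their values were seen. They were COX17 at -2.51, COX16 at -1.73, COA4 at -1.49, COA7 at -0.89 and COX15 at -0.88. Of 9 tested regulators of respiratory genes, 5 were lower in adipose, 2 were higher and 2 did not pass, beside 39.2% lower and 46.7% higher over all tested genes, so this short list is not set apart from the background. The coactivator PPARGC1A, named after its value was seen, was at -3.83 (SE 0.233). Its adipose level was low, at 0.170 to 3.90 CPM (median 0.955), against 9.21 to 30.6 CPM in muscle (median 19.6). The nuclear receptor ESRRA was at -2.30 (SE 0.086). GABPB1 was at 0.36 (SE 0.085), NRF1 at 0.19 (SE 0.076), and the coactivator PPRC1 did not pass at -0.11 (SE 0.113). The call of NRF1 was lost without the 4 pigs highest in fibre markers in adipose, at an edgeR adjusted p = 0.0901, without Sample_656, Sample_572 and Sample_735 (edgeR adjusted p = 0.0585) and with DESeq2 (adjusted p = 0.0634).

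The spread of the subunits across pigs was set beside that of all tested genes, which were not matched to them for level. The median SD of log2 CPM was 0.29 in adipose and 0.31 in muscle for the 43 tested subunits, beside 0.32 and 0.37 over all tested genes. In adipose the lowest library was that of Sample_186 for 17 subunits and of Sample_114 for 11. The highest was that of Sample_889 for 15 and of Sample_731 for 13, and Sample_731 also had the highest fibre marker sum in adipose. In muscle Sample_735 had the lowest library for 34 of 43 subunits and Sample_231 the highest for 33. With library totals alone these muscle counts were 5 and 13, and the trimmed-mean factor of Sample_735, 0.862, was the highest of the muscle libraries.

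Fibre marker levels in adipose were set beside subunit levels. The Spearman rho of a subunit with the summed fibre markers over 18 adipose libraries had a median of 0.314 over 42 subunits, against 0.0175 over all 12602 genes tested. It was positive for 38 of the 42. After adjustment over all genes 0 subunits passed in the permutation test, against 1.14% of all genes, while 11 had an unadjusted p under 0.05 (26.2%, against 13% of all genes). By Pearson 0 passed after adjustment and 12 had an unadjusted p under 0.05 (28.6%, against 13.2% of all genes). The highest rho was that of NDUFS4, 0.608 (permutation p = 0.00862, adjusted p = 0.237), with a Pearson r of 0.651 (permutation p = 0.00318, adjusted p = 0.127), or 0.638 without the 2 libraries farthest from the median. COX8A had the lowest rho, -0.368 (permutation p = 0.133, adjusted p = 0.502; Pearson r of -0.401, permutation p = 0.0988, adjusted p = 0.454), and an r of -0.172 without 2 libraries. Without the 4 adipose libraries highest in fibre markers the median rho was 0.0637, and rho was positive for 23 of the 42. By the permutation test 0 subunits then had an unadjusted p under 0.05, against 9.79% of all genes. With these 4 pigs left out in both tissues, the median log2 difference of the subunits was -2.55, beside -2.47 with them.

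In muscle the rho with the summed adipocyte markers had a median of -0.224 over 43 subunits and was positive for 8, beside -0.00516 over all 11703 genes tested. That sum was mostly CFD, with a median of 163.5 CPM against 225.3 CPM for the sum. The rho with the sum was 0.713 for CFD and 0.5315 for LIPE. It was 0.0547 for PPARG, -0.0877 for PCK1, -0.117 for CIDEC and -0.3065 for PLIN1. The sum therefore cannot be read as the fat cell content of the muscle libraries. By the permutation test 0 subunits passed after adjustment, against 0.145% of all genes, and 6 had an unadjusted p under 0.05 (14.0%, against 14.9% of all genes). By Pearson these counts were 0 and 5 (11.6%, against 18.5% of all genes), so neither share was above that of all genes. The farthest was NDUFS1 at -0.610 (permutation p = 0.00836, adjusted p = 0.214; Pearson r of -0.576, permutation p = 0.0141, adjusted p = 0.143), or an r of -0.474 without the 2 libraries farthest from the median.

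A last comparison asked whether a pig with high subunit levels in one tissue also had them in the other. Spearman's rho between adipose and muscle over 18 pigs had a median of 0.181 over 42 subunits, beside 0.185 over all 11109 genes tested, and was positive for 27. By a permutation test with 100000 permutations 0 subunits passed after adjustment over all genes, against 0.585% of all genes. An unadjusted p under 0.05 was found for 6 subunits by Spearman (14.3%, against 14.3% of all genes) and 5 by Pearson (11.9%, against 14.9%), shares near or below those over all genes. The highest were ATP5F1A at 0.711 (permutation p = 0.00122, adjusted p = 0.0835) and SDHC at 0.676 (permutation p = 0.00243, adjusted p = 0.105). Their Pearson r were 0.616 (permutation p = 0.00515, adjusted p = 0.115) and 0.609 (permutation p = 0.00652, adjusted p = 0.131), or 0.483 and 0.579 without the 2 pigs farthest from the median. NDUFA11 had the lowest rho, -0.470 (permutation p = 0.0516, adjusted p = 0.354; Pearson r of -0.248, permutation p = 0.333, adjusted p = 0.699), with r at -0.269 once 2 pigs were left out. NDUFA6, with its separate groups of pigs, was too thinly counted to enter.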

How the data were processed

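The deposited table holds expected counts per Ensembl pig gene, made by the authors without normalisation and in steps of 0.5 (35.1% of values were not whole). Per the submitters' processing notes the tools were GSNAP and HTSeq; no version, build or annotation is stated in what was used here. Libraries were read for 100 nt from both ends with a TruSeq kit, per the labels' protocols, which do not say that strand was kept, so overlapping and antisense genes could not be told apart. Values were rounded, 5 lines that name no gene were left out (34.5% of an adipose and 19.9% of a muscle library fell in no gene), and 0 columns were unused. Symbols come from a table of current names, which gave one for 11804 of 25322 genes. No sequences were used here.

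Tissues were compared with edgeR 4.0.16 in R 4.3.3 (robust quasi-likelihood fit of tissue alone, trimmed-mean factors, default filter, 12542 genes, Benjamini-Hochberg threshold 0.05), and the fit was tested on simulated data. The SE is the log2 difference over the square root of F. All pigs are separate animals, and libraries with 1 number come from 1 pig, so the numbers pair the samples. Deviations from the tissue means correlated at 0.0973 to 0.359 within pigs (mean 0.236). The average between pigs, -0.0138, is largely fixed by taking off the tissue means and is no separate support for the pairing. Correlations used log2 CPM (prior count 2), genes reaching 1 CPM in 15 or more of 18 libraries per tissue used, and 100000 permutations in Python 3.11.15 with NumPy 2.4.6 and numba 0.67.0. Alternatives were a pig block, other scalings, DESeq2 1.42.0, no filter, another prior count, Pearson's r and pigs left out.

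The members and gene lists were chosen with earlier results of these data known. Named genes are, per complex, the 3 with the highest mean CPM, both extremes, all not called or higher in adipose, and paralog pairs; and per further list the 2 with the highest mean CPM and those against its majority. Other members were named after their values were seen. Results for 2 genes that the rule names are not reported here, though they are in all counts and medians.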

Additional observations from a re-analysis of the deposited data

How the results depend on the processing

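With the pig number as a replicate block 41 subunits were lower and 2 higher in adipose, and no call of a subunit changed; the difference of ATP5MC1 against ATP5MC3 was -1.45 also with no replicate block. Library totals alone gave 10148 genes higher and 1520 lower in adipose (87.0% of calls higher, against 54.3%), and 38 subunits lower, 3 higher and 2 not passing. The complex medians were then -1.13 (I), -0.92 (II), -1.57 (III), -0.70 (IV) and -1.20 (V). Under that scaling COX7A2 stood at 0.91, NDUFS5 at 0.0024 and PPRC1 at 1.26, all 3 on the adipose side, and NDUFB10 at -0.16 did not pass. No filter gave 9077 genes higher in adipose and moved the median of all genes by 0.27. With DESeq2 size factors, with DESeq2, without the 4 pigs highest in fibre markers and without Sample_656, Sample_572 and Sample_735, 1 subunit each was higher in adipose (COX7A2L) and 1 did not pass (COX8A); with no filter 1 did not pass (NDUFA4L2). With NDUFA4 counted in complex I the complex IV median was -1.29. Subunits called in the correlations were 0 under every alternative run, while all genes called between tissues were 65, or 198 (Pearson), 377 (library totals), 7 (without the 4 pigs) and 16 (without Sample_656, Sample_572 and Sample_735). With fibre markers 144 genes were called, or 59 without the 4 pigs, and with adipocyte markers 17, or 263 by Pearson. The cause of these shifts was not tested. Depth limits NDUFA6 and NDUFA4L2, where counting error is large.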
